A study of Mus musculus with 6 samples.

Results

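Transcripts of 9 genes of vitamin A metabolism and its signalling output were followed across mouse stromal cells of the lymph node (LN) and embryonic fibroblasts. They were Stra6, Crabp1, Crabp2, Aldh1a1, Aldh1a2, Aldh1a3, Cyp26b1, Rarb and Rarres2. The set was chosen by name, with earlier results of these data known, and all 9 had 1 row each among the 19938 genes measured. The study compared 6 single-colour Affymetrix arrays of total RNA. Stromal cells had been sorted fresh from adult C57BL/6JJcl lymph nodes as lacking CD45 and CD31 and carrying podoplanin and VCAM-1 (LN stroma, 1 array). The cell lines BLS4 and BLS12, both established from lymph nodes of BALB/cA mice, were grown for 2 days in 1 µg/ml goat polyclonal agonistic antibody against LTβR, the lymphotoxin β receptor, 1 array each, or without it, 1 array each. Mouse embryonic fibroblasts (MEF, 1 array) came from C57BL/6JJcl embryos (E11.5-13.5) and were cultured in the same medium as the lines. The labels named no control antibody, did not say which lymph nodes were taken, and named no separate cultures behind the 2 arrays of either line. The p-values therefore rest on the spread of these 4 arrays, that is the disagreement of the lines, pooled with that of all genes tested. That spread may be technical, and the spread between separate cultures was not measured. LN stroma, the lines and MEF differed in strain, age, culture or establishment as a line, and within any of these comparisons such factors cannot be told apart.

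Retinol reaches cells bound to the carrier RBP4 and can enter through the membrane receptor STRA6. Alcohol and retinol dehydrogenases such as ADH1 and RDH10 turn it into retinaldehyde, the retinaldehyde dehydrogenases ALDH1A1, ALDH1A2 and ALDH1A3 turn that into retinoic acid, and CYP26 enzymes break retinoic acid down. The cytosolic carriers CRABP1 and CRABP2 bind retinoic acid, CRABP2 handing it to nuclear receptors such as RARβ, which is itself encoded by a gene that retinoic acid induces. Rarres2, named as a retinoic acid receptor responder, encodes chemerin, a secreted precursor that proteases activate and that draws macrophages, dendritic cells and natural killer cells bearing the receptor CMKLR1. In mouse gut-draining nodes, stromal retinaldehyde dehydrogenases are known for helping to give lymphocytes their gut-homing receptors.

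The genome sequence at the starts of 3 genes is shown because Crabp1 had the widest difference between MEF and all stromal arrays among the retinoid genes, and because Aldh1a1 followed the same course over the cell lines as its neighbour on chromosome 19, Aldh1a7, which is not one of the 9 and encodes a close relative of the enzyme. Each window runs 5′ to 3′ along the gene, from 250 bases before a start to 50 bases from it on, as RefSeq gives it for GRCm38.p6: chr9:54764498-54764797, plus strand, for Crabp1; chr19:20601718-20602017, plus strand, for Aldh1a1; and chr19:20727507-20727806, minus strand, for Aldh1a7. RefSeq gives Aldh1a1 more than 1 start, the window shown is at the one farthest along the gene, and which start these cells use was not measured. In the Crabp1 window capitals mark the GC box, GGGCGG, on either strand. In the other windows they mark the CCAAT box on either strand.
Crabp1: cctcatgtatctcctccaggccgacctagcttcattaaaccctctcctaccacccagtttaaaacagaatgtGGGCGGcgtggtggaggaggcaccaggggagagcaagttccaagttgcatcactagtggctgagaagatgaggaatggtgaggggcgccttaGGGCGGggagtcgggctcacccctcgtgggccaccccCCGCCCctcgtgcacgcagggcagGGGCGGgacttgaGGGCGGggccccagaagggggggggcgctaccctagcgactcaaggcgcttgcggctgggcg
Aldh1a1: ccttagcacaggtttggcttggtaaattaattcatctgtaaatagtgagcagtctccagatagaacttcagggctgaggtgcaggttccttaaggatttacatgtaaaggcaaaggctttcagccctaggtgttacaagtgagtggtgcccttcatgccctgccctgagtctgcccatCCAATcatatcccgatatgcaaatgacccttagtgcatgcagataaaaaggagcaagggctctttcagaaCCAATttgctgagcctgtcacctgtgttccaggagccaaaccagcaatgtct
Aldh1a7: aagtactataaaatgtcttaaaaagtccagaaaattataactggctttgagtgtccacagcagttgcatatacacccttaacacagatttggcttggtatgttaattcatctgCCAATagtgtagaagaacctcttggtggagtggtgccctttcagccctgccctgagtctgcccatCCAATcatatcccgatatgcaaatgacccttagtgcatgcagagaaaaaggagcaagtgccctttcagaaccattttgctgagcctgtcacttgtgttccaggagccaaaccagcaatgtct
The Crabp1 window held 5 GC boxes and 65.0% G or C. In the windows of Aldh1a1 and Aldh1a7 a CCAAT box began at the same place, 72 bases before the start, and from there to the window's end 117 of 122 bases (95.9%) were identical. The stretch was set to begin at that shared box, in the Aldh1a1 window that aligned with Aldh1a7, so its identity is not a test. Over the whole windows 59.0% were identical without gaps, and 70.4% in a global alignment. The earlier Aldh1a1 window, not shown, held no CCAAT box. Searched on both strands, GGGCGG was found in 35.7% and CCAAT in 37.4% of all 32851 windows of that length. The windows were available for 6 of the 9 genes, 10 windows in all, and RefSeq's table held none for Crabp2, Aldh1a3 and Rarres2. None of the 10 held the short repeats searched for, written as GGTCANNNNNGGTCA (in 0.0761% of all windows), GTTCANNNNNGTTCA (0.0396%) or GGTCANNGGTCA (0.222%), nor the single hexamer AGGTCA (16.3%), which can overlap the repeats of GGTCA. Such matches are letters in a window, and their absence says nothing about retinoic acid receptors. Repeats of whole hexamers, at the spacings these receptors bind, were not searched for.

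Values below are log2 of the deposited intensity, and a difference of 1 is 2-fold. The medians of the 6 arrays lay between 5.69 and 5.82. Of the 54 values of the 9 genes, 40 were at or above their array's median, and the table held no detection call, so the size of a difference is approximate where its lower level lies below the median. LN stroma had all 9 genes at or above the median and MEF had 8, against 5 or 6 on each cell line array. Stromal markers were at or above the median for 8 of 8 genes on every array, with Pdpn at 10.20 and Vcam1 at 11.90 in LN stroma, where Ptprc, which encodes CD45, was at 5.70 and Pecam1, which encodes CD31, at 6.44. For bulk RNA, fewer cells of a type and less RNA per cell cannot be told apart.

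**Figure D1:**
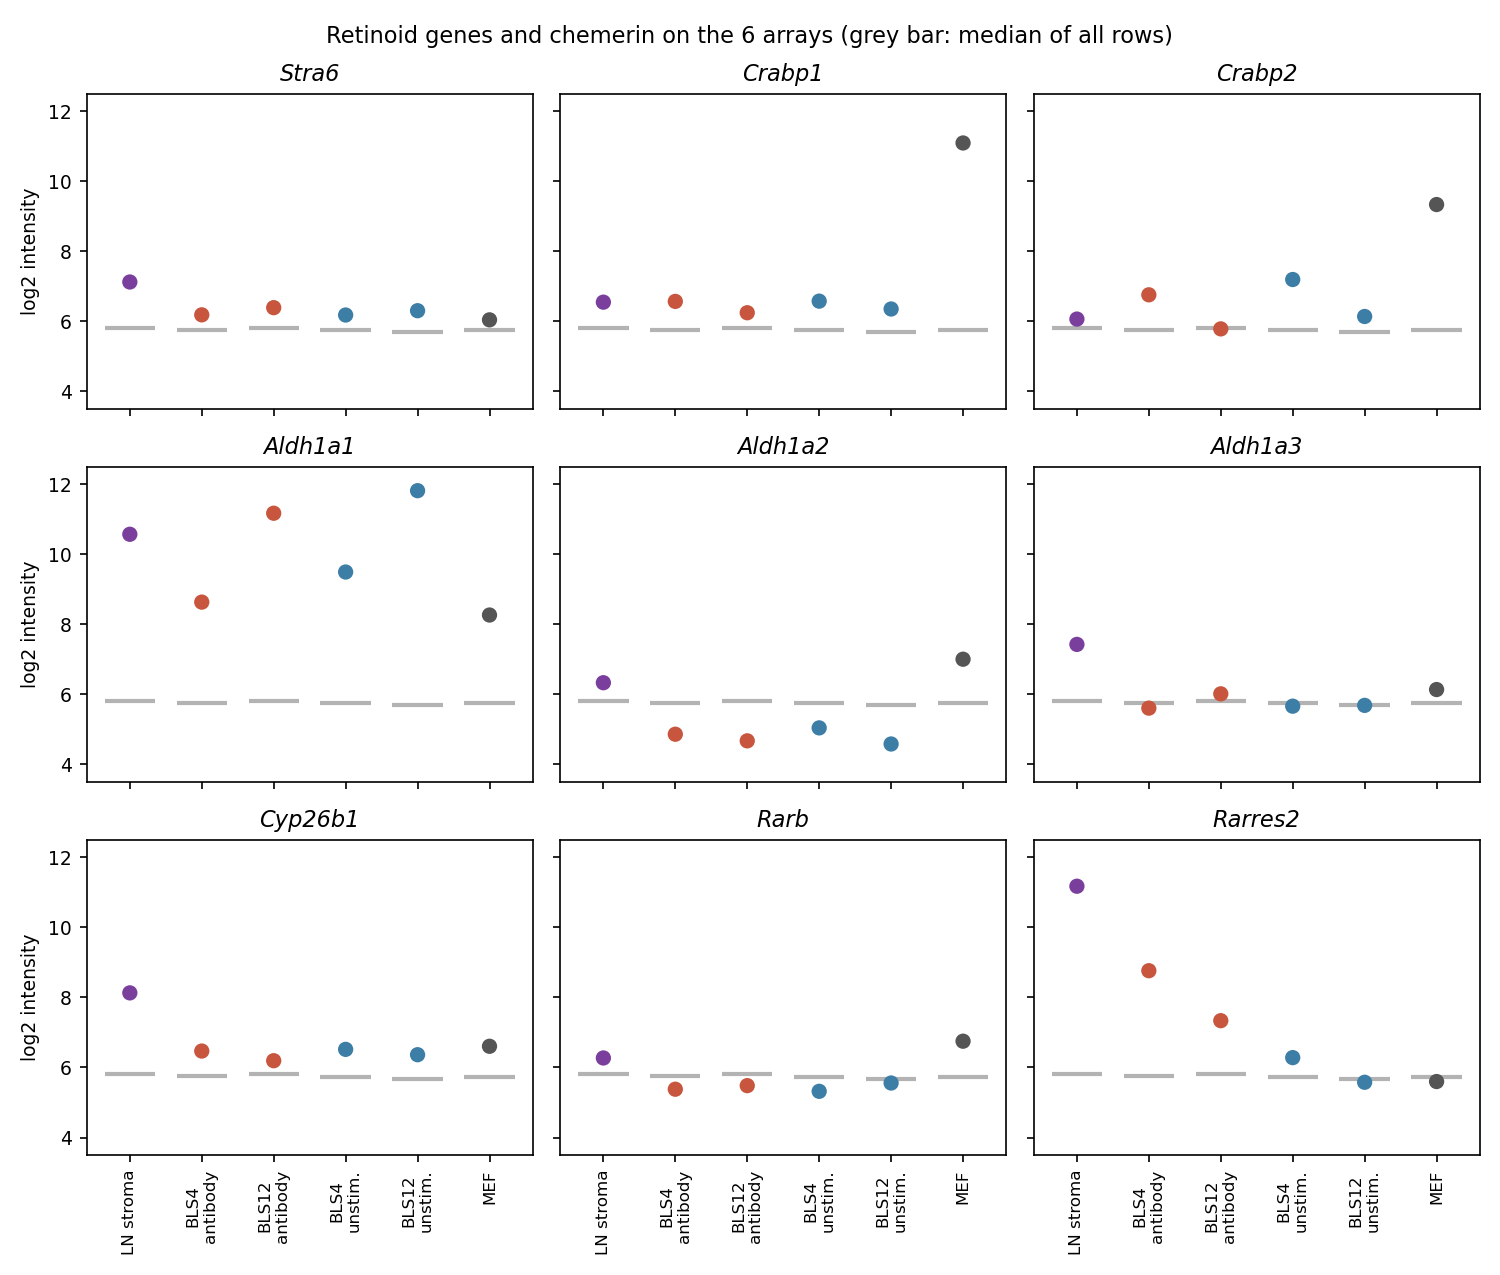
Log2 intensity (vertical axis) of the 9 genes on each of the 6 arrays (horizontal axis; unstim. is unstimulated), 1 point per array, with a grey bar at the median of all rows of that array. Rarres2 is highest in LN stroma (11.18), Crabp1 (11.09) and Crabp2 (9.33) are highest in MEF, and Aldh1a1 is highest in both BLS12 arrays.

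Rarres2, the chemerin gene (chr6:48569696-48572845 in GRCm38.p6), rose with the LTβR antibody in both lines and stood highest in fresh LN stroma. It measured 8.76 in BLS4 and 7.34 in BLS12 with antibody, against 6.28 in BLS4 and 5.58 in BLS12 without it. Both treated arrays lay above both unstimulated ones. The difference was 2.48 in BLS4 and 1.76 in BLS12, on average 2.12 (SE 0.205, 4.35-fold with a 95% interval of 3.05 to 6.20, higher in 2 of 2 lines). In limma, fitted to 11988 genes over the 4 cell line arrays with the line as a term, its adjusted p was 0.0442 (unadjusted p = 7.47e-05), which ranked it 20th by p. The call ended after quantile normalization (adjusted p = 0.0866, difference 2.05) and without the line as a term (adjusted p = 1). Of the genes tested, 0.275% passed, 0.200% higher and 0.0751% lower, that is 24 higher of 33, against 54 of 98 with each array centred on its median and 5 of 6 after quantile normalization. Of 6 NF-κB pathway genes and targets listed as a check of the treatment, 4 rose (Nfkbie by 2.93, Nfkbia by 2.00, Birc3 by 2.24 and Cxcl16 by 3.14), and Nfkb2 (1.96, limma adjusted p = 0.0527) and Relb (1.09, limma adjusted p = 0.0918) did not pass. Among the 9 genes 6 passed the intensity filter of this test, namely at least 2 of the 4 arrays at or above the median, and Rarres2 was the 1 called. Summed macrophage and dendritic cell markers were 599 in BLS4 and 1014 in BLS12 with antibody, against 631 in BLS4 and 425 in BLS12 without it. Lyz2 was the largest part of each sum, at 230 in BLS4 and 791 in BLS12 with antibody, against 373 and 225 without it. Cd68 was at 218 in BLS4 and 77 in BLS12 with antibody, against 108 and 66 without it. The other listed markers were below the median on all line arrays. The part of such cells in the Rarres2 difference was not tested.

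In LN stroma Rarres2 was at 11.18, above every other array. That was 2.41 and 3.84 above antibody-treated BLS4 and BLS12, 4.90 and 5.60 above the same lines without antibody, and 5.58 above MEF, which had 5.60, under its array's median. LN stroma was 5.33-fold and 14.3-fold above the antibody-treated lines. Unstimulated BLS12 differed from MEF by -0.02. LN stroma had 1 array, so these differences carry no test. Endothelial markers were at or above the median for 4 of 6 genes in LN stroma, against 0 to 2 of 6 on the other arrays, with summed intensities of 584 in LN stroma, 208 to 251 in the lines and 387 in MEF. The 4 were Tek (8.18), Pecam1 (6.44), Cdh5 (5.97) and Kdr (5.96). Kdr was higher in MEF, at 7.93, where it made up 243 of the sum of 387. The lymphatic markers Lyve1 (5.71) and Prox1 (4.88) were below the median of LN stroma, though higher there than on the other arrays. The part of endothelial cells in the Rarres2 level of LN stroma was not tested.

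Of chemerin's receptors, Cmklr1 and Ccrl2 were also highest in LN stroma. Cmklr1, the signalling receptor, measured 7.98 in LN stroma, against 5.18 and 5.10 in antibody-treated and 5.06 and 4.93 in unstimulated BLS4 and BLS12, and 5.83 in MEF. LN stroma was thus the array on which both chemerin and Cmklr1 were highest, and the line arrays lay below their medians for Cmklr1 with and without antibody. Ccrl2, which binds chemerin without signalling, had 6.72 in LN stroma and 4.94 to 5.35 on the other 5 arrays. Gpr1, a further chemerin receptor, was below the array median throughout, at 3.88 in LN stroma, 4.29 to 4.55 in the lines and 5.05 in MEF. Of 15 receptors and chemerin-processing proteases listed, 13 had a row and 4, all proteases, entered the limma test with antibody, where 0 passed and 0 had an unadjusted p under 0.05, against 0.275% and 11.6% of all genes tested. The median difference of these 4 was -0.12, against -0.02 over all genes tested.

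The retinoic acid carriers Crabp1 and Crabp2 set MEF apart from every lymph node array. Crabp1 (chr9:54764748-54773110) measured 6.54 in LN stroma, 6.56 and 6.24 in BLS4 and BLS12 with antibody, 6.57 and 6.35 in BLS4 and BLS12 without it, and 11.09 in MEF. The 5 lymph node arrays spanned 0.33, and their differences from MEF ran from -4.85 to -4.52. As a fold, Crabp1 was 23.4-fold lower in LN stroma, and 22.9-fold and 26.7-fold lower in unstimulated BLS4 and BLS12, than in MEF. Crabp2 (chr3:87948693-87953372) measured 6.06 in LN stroma, 6.75 and 5.78 in BLS4 and BLS12 with antibody, 7.19 and 6.13 without it, and 9.33 in MEF. Here the lymph node arrays spread more widely, over 1.41, and BLS4 came closest to MEF, at 4.41-fold lower without antibody. Macrophage and dendritic cell markers were also higher in MEF, at or above the median for 5 of 7 genes there and 2 of 7 on each other array, with summed intensities of 343 in LN stroma, 425 to 1014 in the lines and 2034 in MEF. Flt3 and Itgax, which mark dendritic cells, were below the median on all arrays, and the part of such cells in the Crabp values was not tested.

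Between LN stroma and MEF, 4 of the 9 genes differed at least 4-fold, 2 higher (Rarres2, Aldh1a1) and 2 lower (Crabp1, Crabp2) in LN stroma. Over all 12613 genes kept, 7.57% did so, 4.64% higher and 2.93% lower in LN stroma. The median difference of the 9 was 1.08, against -0.11 over all genes kept. Unstimulated lines and MEF differed at least 4-fold in both lines for 2 of the 9 (Crabp1 and Crabp2, both lower in the lines) and for 1.44% of 12676 genes, 0.308% higher and 1.14% lower in the lines. In BLS12 alone 4 of the 9 did, since Aldh1a1 and Aldh1a2 differed that much there. Antibody-treated lines and MEF differed so for 3 of the 9, with Aldh1a2 added, and for 1.86% of 12565 genes, 0.509% higher and 1.35% lower in the lines. All of these comparisons share the MEF array, and none has a test.

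**Figure D2:**
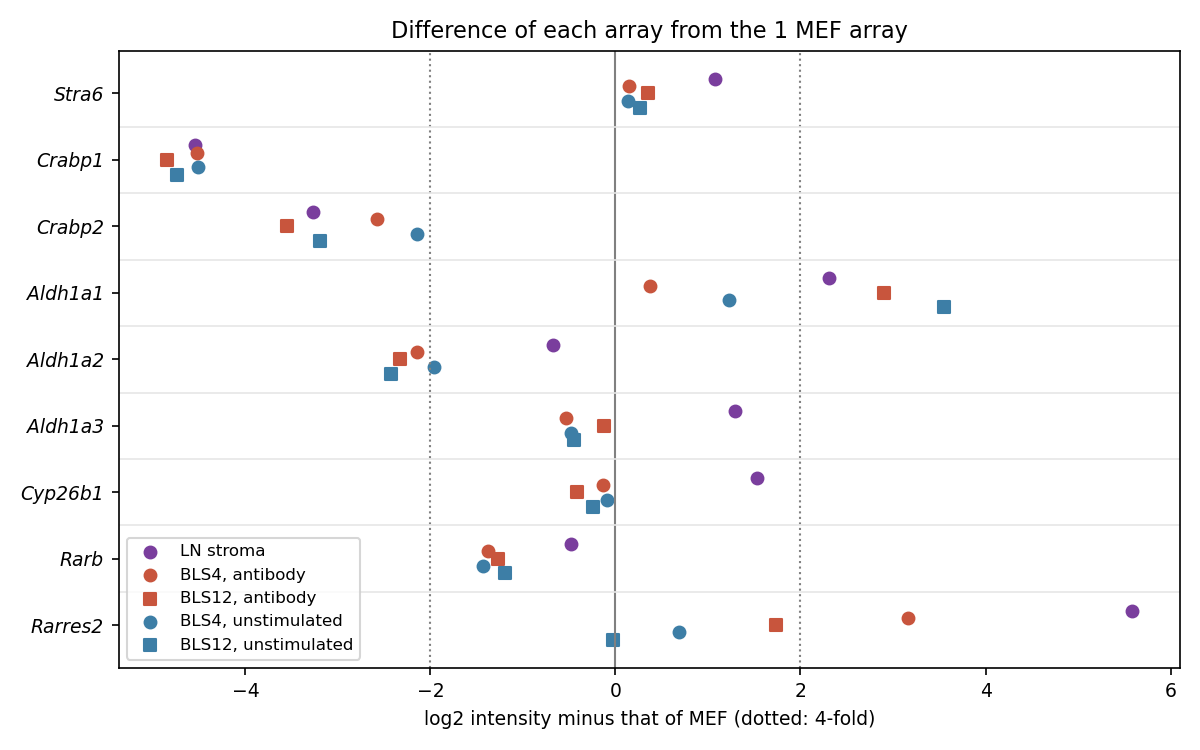
Log2 intensity of 5 arrays minus that of the MEF array (horizontal axis, dotted lines at 4-fold) for the 9 genes (vertical axis), with purple for LN stroma, red for antibody-treated and blue for unstimulated lines, circles for BLS4 and squares for BLS12. All 5 points of Crabp1 and of Crabp2 lie left of the 4-fold line, and Rarres2 runs from -0.02 in unstimulated BLS12 to 5.58 in LN stroma.

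Among the enzymes that make retinoic acid, Aldh1a1 (chr19:20492583-20643463) separated the lines. It measured 11.17 with and 11.82 without antibody in BLS12, against 8.63 with and 9.49 without antibody in BLS4. Both BLS12 arrays were above both BLS4 arrays. The BLS12 minus BLS4 difference was 2.54 with and 2.32 without antibody, on average 2.43 (SE 0.144, 5.39-fold with a 95% interval of 4.20 to 6.92), with an adjusted p of 0.000814 in limma. LN stroma, at 10.57, lay between the lines, with a difference of 1.08 from unstimulated BLS4 and of -1.25 from unstimulated BLS12, and MEF was lowest at 8.26. Antibody-treated minus unstimulated cells gave -0.86 in BLS4 and -0.64 in BLS12, a mean of -0.75 (95% interval -1.11 to -0.39) that did not pass (limma adjusted p = 0.132, unadjusted p = 0.00247).

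Adh1 and Aldh1a7 had the same order between the lines. Adh1, which oxidizes retinol, measured 7.72 with and 9.02 without antibody in BLS12, against 5.66 with and 6.35 without antibody in BLS4, a difference of 2.36 (SE 0.188, limma adjusted p = 0.00157). Its level was 12.25 in LN stroma, 94.3-fold above the 5.70 of MEF. Aldh1a7 measured 8.34 with and 10.46 without antibody in BLS12, against 6.00 with and 6.96 without antibody in BLS4, a difference of 2.92 (SE 0.279, limma adjusted p = 0.00285). Unlike Aldh1a1 it was below its array's median in LN stroma, at 5.55, and it was at 5.96 in MEF. How far the probes of either row bind the other transcript was not tested. With antibody the differences of both genes were negative in both lines and did not pass, at -0.99 for Adh1 (limma adjusted p = 0.129) and -1.54 for Aldh1a7 (limma adjusted p = 0.120).

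Of 8 mesothelial markers, 6 were higher in BLS12 than in BLS4 in limma, where 12.2% of all genes were. The markers were at or above the median for 8 of 8 genes in BLS12 with and without antibody, with summed intensities of 1534 and 3236, against 5 of 8 with and 4 of 8 without antibody in BLS4, with sums of 495 and 516. LN stroma (8 of 8, sum 1136) and MEF (8 of 8, sum 1891) also had them. The 6 differed by 0.56 (Wt1) to 4.06 (Lrrn4), and Krt8 (0.25) and Krt18 (0.25) did not pass. The part of mesothelial-type transcription in the Aldh1a1 difference was not tested.

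Aldh1a2 and Aldh1a3, the other retinaldehyde dehydrogenases, were near or below the array median in the lines. Aldh1a2 (chr9:71215789-71296243) measured 6.33 in LN stroma, 4.86 and 4.67 in BLS4 and BLS12 with antibody, 5.04 and 4.58 without it, and 7.0 in MEF. The 4 line arrays were the lowest, with differences from MEF between -2.42 and -1.96. Aldh1a3 (chr7:66390892-66427477) measured 7.43 in LN stroma, 5.61 and 6.01 in BLS4 and BLS12 with antibody, 5.66 and 5.68 without it, and 6.14 in MEF. LN stroma was the highest for Aldh1a3, by 1.29 over MEF. Neither gene passed the intensity filter for the antibody test, and neither reached 4-fold between LN stroma and both lines.

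Cyp26b1, which degrades retinoic acid, and Stra6, the retinol receptor, were likewise highest in LN stroma. Cyp26b1 (chr6:84571414-84593908) measured 8.13 in LN stroma, 6.47 and 6.19 in BLS4 and BLS12 with antibody, 6.52 and 6.37 without it, and 6.61 in MEF. Stra6 (chr9:58063793-58154004) measured 7.12 in LN stroma, 6.18 and 6.38 in BLS4 and BLS12 with antibody, 6.17 and 6.30 without it, and 6.04 in MEF. The 5 cultured arrays spanned 0.41 for Cyp26b1 and 0.35 for Stra6. LN stroma exceeded MEF by 1.52 for Cyp26b1, which is 2.88-fold, and by 1.08 for Stra6, which is 2.11-fold. Rarb (chr14:16430839-17082331), receptor and target of retinoic acid at once, measured 6.27 in LN stroma, 5.38 and 5.48 in BLS4 and BLS12 with antibody, 5.32 and 5.56 without it, and 6.75 in MEF. It shared with Aldh1a2 the order of MEF first, LN stroma second and the lines last, with all 4 line arrays below their medians.

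Set against both unstimulated lines, LN stroma differed at least 4-fold for 1 of the 9 genes, Rarres2, and for 4.09% of 12827 genes, 3.52% higher and 0.569% lower in LN stroma. Against both antibody-treated lines it did so again for Rarres2 alone of the 9, and for 4.09% of 12675 genes, 3.44% higher and 0.647% lower. Median differences of the 9 were 0.88 and 0.84, against -0.09 and -0.10 over all genes kept. Both comparisons share the LN stroma array.

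Apart from Rarres2, no gene of the 9 that was tested changed with antibody past the threshold in limma, although Aldh1a1 and Crabp2 had an unadjusted p under 0.05, as had 11.6% of all genes tested. Crabp2 differed by -0.40 (95% interval -0.74 to -0.05, adjusted p = 0.376), Crabp1 by -0.06 (-0.40 to 0.29), Cyp26b1 by -0.11 (-0.46 to 0.24) and Stra6 by 0.05 (-0.30 to 0.39). Array medians themselves were 0.13 higher with antibody in BLS12 and 0.02 higher in BLS4, and with each array centred on its median the Stra6 difference turned to -0.03, while that of Rarres2 was 2.05 (adjusted p = 0.00999).

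**Figure D3:**
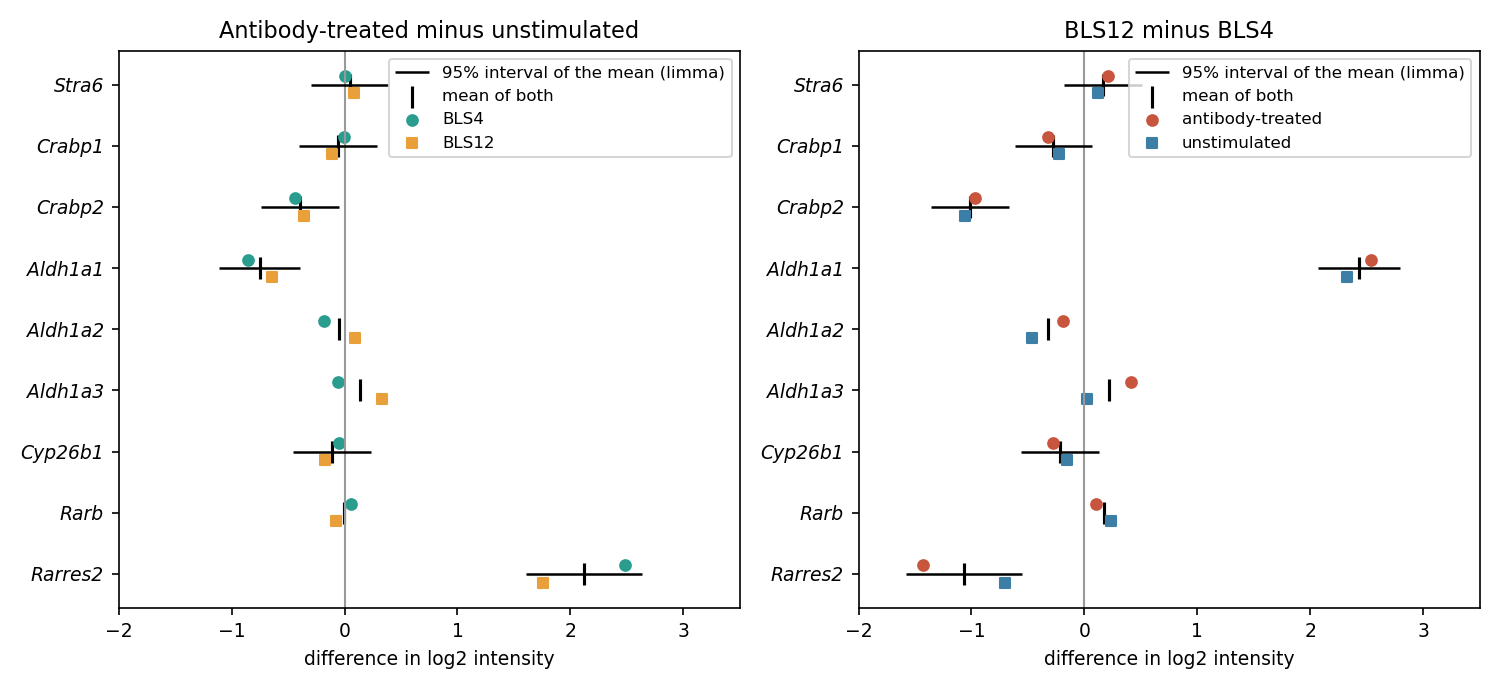
Differences in log2 intensity (horizontal axis) for the 9 genes (vertical axis): antibody-treated minus unstimulated cells in BLS4 and BLS12 (left), and BLS12 minus BLS4 in antibody-treated and unstimulated cells (right), with a tick at the mean of both and a bar for its 95% interval in limma, drawn for the 6 genes tested. Rarres2 stands at 2.12 on the left, and Aldh1a1 at 2.43, Crabp2 at -1.01 and Rarres2 at -1.07 on the right.

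Between the lines, 3 of the 6 genes tested differed in limma, 1 higher in BLS12 (Aldh1a1) and 2 lower (Crabp2, Rarres2). So many genes differed between these lines that 23.6% of all 11988 passed, 12.2% higher and 11.4% lower in BLS12. Crabp2 stood at -1.01 (SE 0.138, limma adjusted p = 0.00753), -0.97 with antibody and -1.05 without it. For Rarres2 it was -1.07 (SE 0.205, limma adjusted p = 0.0193), -1.43 with antibody and -0.70 without it. Without antibody as a term in the model neither call was made (limma adjusted p = 0.0507 for Crabp2 and 0.514 for Rarres2). Crabp1 (-0.27, 95% interval -0.62 to 0.07), Cyp26b1 (-0.21, -0.56 to 0.13) and Stra6 (0.16, -0.18 to 0.51) did not pass. The median over the 6 was -0.24, against 0.00 over all genes tested.

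In the wider pathway, Rbp4 and Rdh10 were highest in LN stroma and Fabp5 was lowest there. Rbp4, the retinol carrier, measured 6.67 in LN stroma, 4.10 and 4.18 in BLS4 and BLS12 with antibody, 4.52 and 4.09 without it, and 4.57 in MEF, which placed LN stroma alone above its median. Fabp5, which can pass retinoic acid to another nuclear receptor, ran the other way, with 5.67 in LN stroma, 7.92 and 8.36 in BLS4 and BLS12 with antibody, 7.25 and 7.80 without it, and 8.73 in MEF. Rdh10, the retinol dehydrogenase, was at 9.75 in LN stroma, at 7.71 and 8.32 in BLS4 and BLS12 with antibody, at 7.60 and 7.68 without it, and at 8.99 in MEF. Of 13 supply and storage genes with a row (of 15 listed), 5 were kept in the comparison of LN stroma with MEF, 1 was at least 4-fold higher (Rbp4) and 1 lower (Fabp5) in LN stroma, and their median difference was 1.18. Rbp4 and Lrat, below the median in MEF (4.57 and 4.61), were kept only through LN stroma, so this median partly reflects the filter. Of the rest, Lipe was higher in LN stroma (7.47, against 6.28 in MEF), and Dgat1 (7.66, against 7.85) and Fabp5 were lower. Of the 24 enzymes that interconvert retinol, retinaldehyde and retinoic acid or act on neighbouring substrates, 16 were kept and 1 was at least 4-fold higher in LN stroma (Adh1) and 0 lower, with a median of 0.18. Retinoid receptors and corepressors had 6 kept of 7 with a row (9 listed), none at least 4-fold apart, and a median of 0.25. Of 16 retinoic acid responsive genes with a row (20 listed), 11 were kept, 1 was at least 4-fold higher (Bhlhe40, by 2.29) and 1 lower (Itga4, by -2.54) in LN stroma, and their median was 0.65. All genes kept had a median of -0.11, with 4.64% at least 4-fold higher and 2.93% lower in LN stroma. Against both unstimulated lines, LN stroma was at least 4-fold higher for Rbp4 (1 of 5 supply genes kept), for Adh1 and Rdh10 (2 of 17 enzymes) and for Cmklr1 (1 of 6 chemerin receptors and proteases), and 0 of 6 receptors and corepressors and 0 of 12 responsive genes reached that size. Over all genes kept there, 3.52% were at least 4-fold higher in LN stroma. Rbp4 and Cmklr1 were below the median in both unstimulated lines and were kept only through LN stroma, as Adh1 was in the comparison with MEF.

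With antibody, 0 of 3 supply genes, 0 of 16 enzymes, 0 of 6 receptors and corepressors and 0 of 11 responsive genes passed in limma, with 1, 6, 1 and 4 at an unadjusted p under 0.05. Over all genes tested, 0.275% passed and 11.6% had an unadjusted p under 0.05. Their median differences were 0.24, -0.07, 0.07 and 0.04, against -0.02 over all genes tested. Dhrs3, the reductase that returns retinaldehyde to retinol and a known retinoic acid target, came nearest, a gene singled out after its values were seen. It measured 8.92 in BLS4 and 8.78 in BLS12 with antibody, against 10.10 in BLS4 and 9.93 in BLS12 without it, a difference of -1.16 (95% interval -1.50 to -0.82, adjusted p = 0.0553). Between BLS12 and BLS4, 2 enzymes were higher (Adh1, Aldh1a7) and 3 lower (Cyp1b1, Dhrs9, Dhrs7) in BLS12, of 16 tested. Cyp1b1, a cytochrome that can oxidize retinoids among other substrates, measured 8.30 with and 6.85 without antibody in BLS12, against 11.55 and 11.51 in BLS4, a difference of -3.96 (SE 0.326, adjusted p = 0.00176). In BLS12, of the other lists, Tgm2, a transglutaminase induced by retinoic acid, was higher by 1.47 (adjusted p = 0.00443), the lipase gene Lipe higher by 0.76, the receptor gene Rxra lower with a difference of -0.58, and the proteases Ctsk (-2.21), Ctsl (-0.69) and Plat (-0.63) lower, all past the threshold in limma. That made 1 of 3 supply genes, 1 of 6 receptors and corepressors, 1 of 11 responsive genes and 3 of 4 chemerin-processing genes, beside the 23.6% over all genes. Median differences were 0.50 for the supply genes, -0.03 for the enzymes, -0.16 for receptors and corepressors, -0.12 for responsive genes and -0.66 for the chemerin-processing genes.

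**Figure D4:**
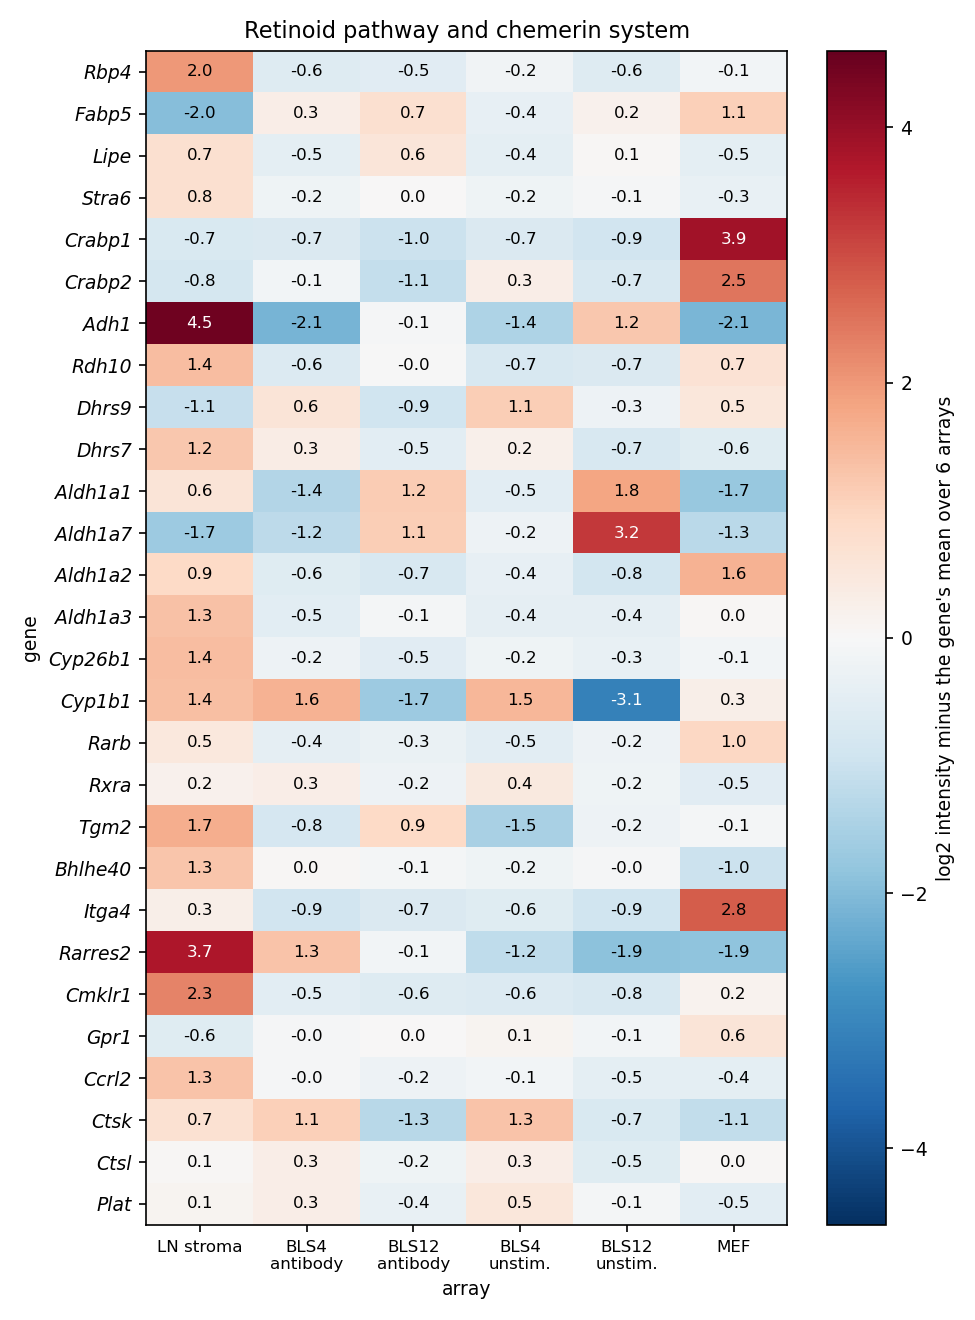
Log2 intensity of each gene (rows) minus its mean over the 6 arrays (columns), for the 9 genes, the chemerin receptors and every listed pathway gene past a threshold in at least 1 comparison. Adh1, Rarres2, Cmklr1 and Rbp4 are warmest in LN stroma, Crabp1, Crabp2 and Itga4 in MEF, and Aldh1a1 and Aldh1a7 in unstimulated BLS12.

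Profiles over the 6 arrays were compared by the root-mean-square difference of mean-centred log2 values, for the 5 genes that ranged over at least 2 log2 units, against 1870 other genes of at least that range. Nearest to Crabp1 were Edil3 (0.11), Nes (0.15) and Htr1b (0.23), where the median over all 1870 was 2.02. Edil3 (3.68 to 4.13) and Nes (4.68 to 5.12) were below the array median on all arrays but MEF. Htr1b was below it in the lines (5.50 to 5.54). Crabp2 was nearest to Fzd6 (0.31), Lmo7 (0.32) and Tagln (0.32), with a median of 1.60. Aldh1a2 had Cdkn1c (0.10), Atp9a (0.16) and Syt11 (0.20) as its nearest, with a median of 1.31. Of these 3, Crabp1 and Aldh1a2 had the nearer neighbours. For Aldh1a1 the nearest were Slc45a3 (0.34), Mylk (0.36) and Kitl (0.39), with a median of 1.67, and for Rarres2 they were Nfkbia (0.58), Cp (0.64) and Cxcl1 (0.66), with a median of 2.12. Nfkbia, an inhibitor of NF-κB, measured 12.83 in LN stroma, 10.59 and 10.38 in BLS4 and BLS12 with antibody, 8.35 and 8.62 without it, and 8.43 in MEF. Of all candidates it was the nearest to Rarres2, yet at 0.58 the likeness was looser than for the other 4 genes.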

How the data were processed

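The deposited table gave 1 linear intensity per probe set and array, made by the authors in Expression Console 1.1 (Affymetrix), per the submitters' processing notes; its summary, normalization and build are not stated here. No pseudocount or floor entered the log2, since all intensities were at least 3.55. Of 35557 rows, 21789 named 1 gene (GEO's platform annotation, symbols checked against RefSeq by Entrez ID for 21698), 1621 several and 12147 none; only the first entered. For the 999 genes with several rows the one with the highest mean was used.

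The antibody and line differences came from 1 additive model of line and antibody over 4 arrays in limma 3.58.1 (lmFit, eBayes, two-sided; R 4.3.3), with Benjamini-Hochberg adjustment over the 11988 genes with at least 2 arrays at or above the array median, a threshold of 0.05 and 95% intervals. It had 1 residual degree of freedom, the disagreement of the lines, and 4.59 prior ones. It was also run on data simulated with equal antibody effects in both lines, which cannot show how it does where these effects differ. The line was a term because both arrays of a pair are the same line, as the labels say. With 1 array of LN stroma and of MEF, their comparisons counted genes at least 4-fold apart, from both lines where the lines took part, among genes with at least 1 array at or above its median. Alternatives were other scalings, filters, row rules, blocks and priors. All 9 genes were named, and of the pathway lists those past a threshold and the chemerin receptors. The 9 genes and the lists were chosen with earlier results of these data known. The number of arrays limits the precision. Promoter windows came from RefSeq (GRCm38.p6).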

Additional observations from a re-analysis of the deposited data

Results flagged for a closer look

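Several differences had opposite signs in BLS4 and BLS12. Where both lines were set against the same LN stroma or MEF array, the gap between the signs is the BLS12 minus BLS4 difference, which limma tested over both antibody states: it passed for Aldh1a1 (2.43, adjusted p = 0.000814), Crabp2 (-1.01, adjusted p = 0.00753) and Rarres2 (-1.07, adjusted p = 0.0193), and did not for Crabp1 (-0.27, adjusted p = 0.21). Aldh1a1 had the widest gap: LN stroma minus unstimulated lines gave 1.08 for BLS4 and -1.25 for BLS12, and LN stroma minus antibody-treated lines gave 1.94 and -0.60. Crabp2 in LN stroma minus antibody-treated lines gave -0.69 for BLS4 and 0.28 for BLS12. Crabp1 gave -0.029 and 0.20 in LN stroma minus unstimulated BLS4 and BLS12, and -0.022 and 0.30 against the antibody-treated lines. Rarres2 in unstimulated lines minus MEF gave 0.68 for BLS4 and -0.021 for BLS12. Antibody minus unstimulated differences were -0.18 in BLS4 and 0.09 in BLS12 for Aldh1a2, -0.056 and 0.33 for Aldh1a3, and 0.06 and -0.075 for Rarb, genes near or below the array median in the lines, and whether the lines differed in these antibody effects was not tested.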

How the results depend on the processing

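Rarres2 was called with antibody under 4 of the 6 alternatives to its fit, with adjusted p from 0.00999 to 0.0434. After quantile normalization it missed the threshold, leaving 0 of the 9 genes called, with a difference of 2.05 (adjusted p = 0.0866). With no replicate block, that is without the other factor (line or antibody) as a term, its difference of 2.12 had an adjusted p of 1, leaving 0 of the 9 called. All genes called with antibody numbered 33 as fitted, 98 after centring each array on its median, 54 without the filter, 6 after quantile normalization and 0 with no replicate block. The small Stra6 difference reversed to -0.03 after centring and to -0.012 after quantile normalization. Without BLS4 the Rarres2 difference was 1.76 and without BLS12 it was 2.48, values with no test. Between the lines, 3 of the 9 were called under 5 of 6 alternatives and 1, Aldh1a1, with no replicate block (adjusted p = 0.0269), where Crabp2 had -1.01 (adjusted p = 0.0507), Rarres2 had -1.07 (adjusted p = 0.514) and 1428 genes passed in all, against 2835. At 2-fold in place of 4-fold, 7 of the 9 differed between LN stroma and MEF, 5 between unstimulated lines and MEF, 5 between antibody-treated lines and MEF, 4 between LN stroma and unstimulated lines and 4 between LN stroma and antibody-treated lines. Leaving out a line, 2 to 4 of the 9 were at least 4-fold from MEF without antibody. Of 441 single-gene values under all alternatives, 5 moved beyond the spread, 4 lost the call and 13, of 10 gene differences, had the other sign. These 10 were that of Stra6 with antibody and the differences with opposite signs in the lines. Among the latter, those of Aldh1a1 and Crabp1 between LN stroma and unstimulated lines also turned to 0.09 after quantile normalization and to -0.01 after centring. The causes of these shifts were not tested. Leaving out a line could not move a value beyond the spread, since the spread came from the same lines. Other filters, row rules, blocks, priors and fold thresholds left the differences themselves unchanged.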
